A study of Mus musculus with 11 samples.

Results

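The genes described here are 45 genes of DNA replication and S phase in the mouse, from the origin recognition complex to the enzymes that supply nucleotides. They were picked out by gene symbol, and the rule uses no measured value, but the list was drawn up with earlier results of these data known. All 45 were measured, each by 1 feature, among 23185 genes with 1 symbol and 25206 features in all. In 8 groups by role there were 12 licensing factors, 6 factors of origin firing and the replicative helicase, 5 subunits of the sliding clamp and its loader, 8 polymerase and primase subunits, 4 factors of single strand binding and lagging strand synthesis, 4 enzymes of nucleotide supply, 3 regulators of the G1 to S transition and 3 factors of chromatin replication.

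The data were 11 arrays of RNA from sorted mouse liver cells, in which the fluorescent protein YFP marked cells of biliary origin. YFP+ cells came from untreated mice (UTR, 2 arrays), from mice fed a choline-deficient, ethionine-supplemented diet (CDE, 3 arrays) and from mice fed a diet with 3,5-diethoxycarbonyl-1,4-dihydrocollidine (DDC, 3 arrays). YFP- cells of untreated mice gave the other 3 arrays. CDE is a model of steatotic injury and DDC of cholestatic injury, and both are followed by a ductular reaction, in which bile duct-like cells expand. The labels give DDC for 5 weeks and count 4 mice on it. That protocol text stands on every sample, and the labels give no duration for CDE and neither strain, age nor sex. The labels do not describe the YFP label further, and every group shares a sort of live cells from the non-parenchymal pellet. Nothing in the labels states that each array had its own animal. The p-values therefore reflect spread between arrays that may be technical in part. RNA of sorted cells is a bulk measure, in which fewer cells in S phase and less RNA per cell cannot be told apart.

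DNA replication begins in G1, when the origin recognition complex, Cdc6 and Cdt1 load the ring of Mcm2 to Mcm7 onto DNA, a step that geminin (Gmnn) blocks until the next cycle. At the start of S phase Cdc45 and the GINS complex turn the ring into an active helicase, and primase, the polymerases, the clamp Pcna and the ligase Lig1 copy the strands. Transcription of many of these genes is switched on by E2F factors as cells leave G1. In the healthy liver, cholangiocytes divide rarely, and in the ductular reaction they enter the cycle.

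Biliary and endothelial markers separated the YFP+ from the YFP- arrays, though YFP- replicate 1 had a higher biliary level than the other YFP- arrays. The mean level of 6 measured markers of biliary epithelium (Krt19, Krt7, Epcam, Sox9, Cldn4 and Cftr) ran from 9.60 to 10.25 log2 units on the 8 YFP+ arrays, against 7.60, 5.00 and 4.79 on YFP- replicates 1, 2 and 3. The mean of 6 markers of sinusoidal endothelium ran from 5.17 to 6.06 in YFP+ and from 10.24 to 11.76 in YFP-. The YFP- arrays differed among themselves in kind, with a mean of 8 lymphocyte markers at 10.36 in replicate 2 against 5.40 and 5.76 in the other two, and a mean of 6 macrophage markers at 11.41 in replicate 3 against 8.10 and 8.31. Among YFP+ arrays, CDE replicate 2 had the highest mean of 9 hepatocyte markers, 8.76 against 7.53 to 7.80 in the other 7. On the YFP- arrays that mean ran from 7.33 to 8.94, so the hepatocyte markers did not separate YFP+ from YFP-. All levels below are log2 values, and a difference of 1 is a doubling. The level of one gene is never set against that of another, because their probes differ.

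**Figure D1:**
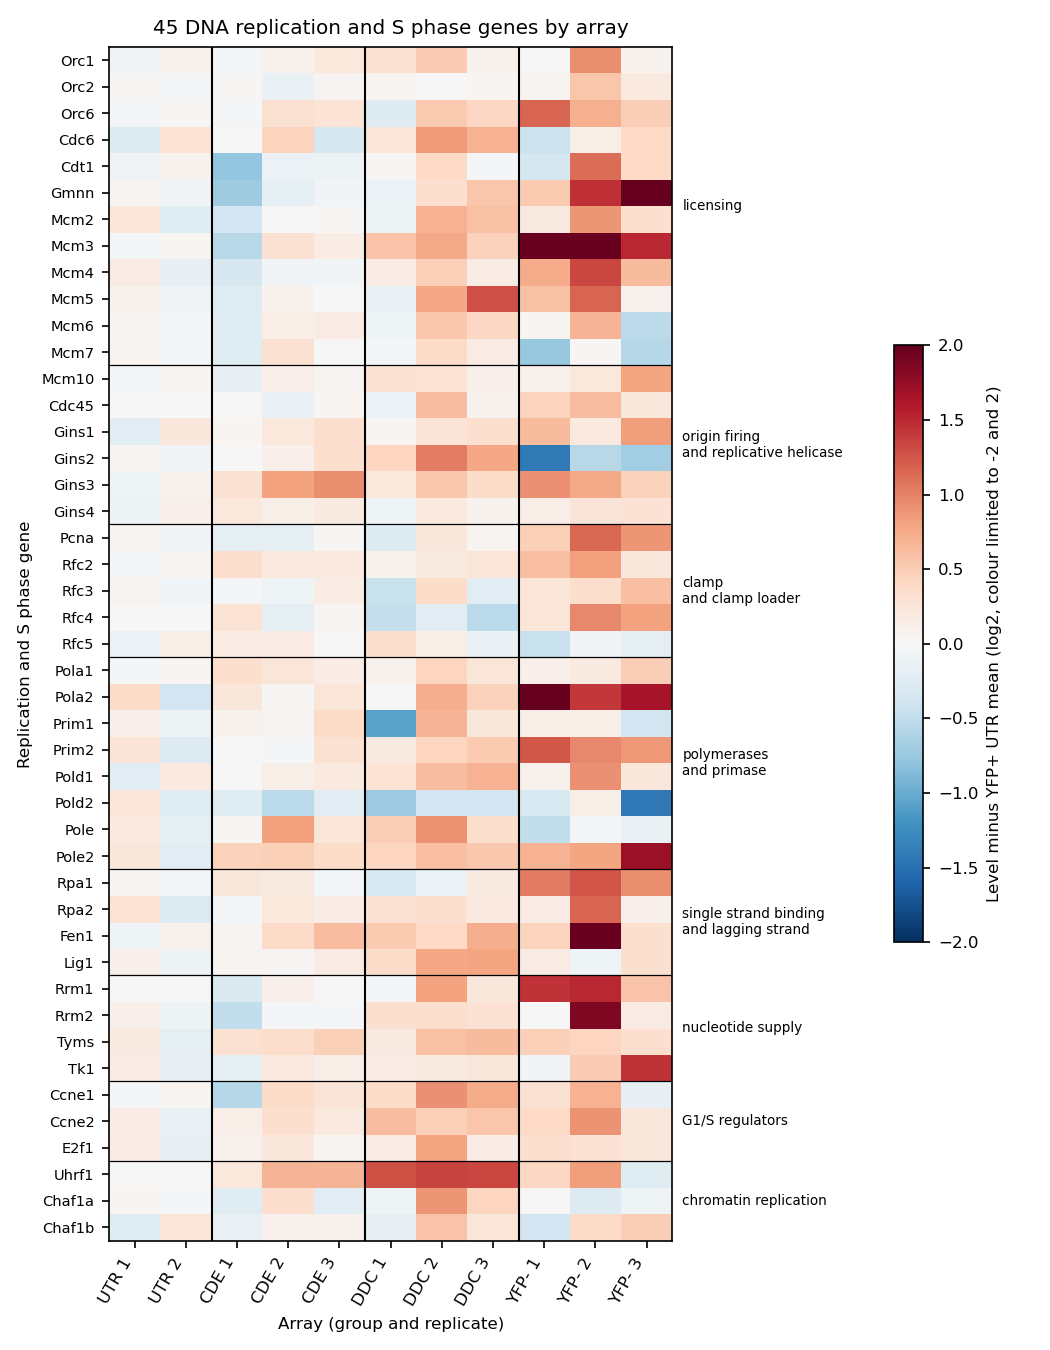
Level of each of the 45 genes on each of the 11 arrays, minus that gene's mean in YFP+ UTR (log2, colour limited to -2 and 2), with genes in rows by role and arrays in columns by group. The medians over the 45 genes are 0.09, 0.51 and 0.29 on the DDC arrays and 0.24, 0.71 and 0.32 on the YFP- arrays.

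In YFP+ cells of untreated mice, 10 replication genes, Mcm3, Pola2 and Rpa1 among them, were lower than in YFP- cells, and Gins2 was higher. By limma, with p-values adjusted by Benjamini-Hochberg over all 23185 genes and a threshold of 0.05, 10 of the 45 were lower (22.2%), against 8.46% of all genes. Higher was 1 member (2.22%), against 10.4% of all genes, and 34 did not pass. The difference was positive for 7 of 45, against 49.1% of all genes, and negative for 38, with a median of -0.41 against -0.01 over all genes. In 24 members both UTR arrays lay below all 3 YFP- arrays (53.3%, against 20.5% of all genes), and in 1 they lay above (against 22.5%).

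Of the licensing factors, 2 of 12 were called lower, both of them subunits of the Mcm ring. Mcm3 read 6.11 and 6.18 in UTR against 8.12, 8.13 and 7.66 in YFP-. The groups are far apart for this gene, and it fell by 1.82 ± 0.25 (SE, n = 2 against 3; limma adjusted p = 0.00116), so that it was 3.53-fold higher in YFP-. Mcm4 read 7.61 and 7.29 against 8.19, 8.78 and 8.09, a difference of -0.90 ± 0.22 (limma adjusted p = 0.0193), again without overlap. The licensing inhibitor Gmnn read 6.37 and 6.27 in UTR against 6.84, 7.78 and 8.60 in YFP-, where replicate 3 was the highest. Its difference of -1.42 ± 0.44 missed the threshold (limma adjusted p = 0.0513), and its interval at 95% ran from -2.41 to -0.43. Mcm2 read 6.60 and 6.13 against 6.55, 7.25 and 6.71, and Mcm5 5.95 and 5.82 against 6.47, 7.05 and 5.98. For Mcm2 the groups overlap, while for Mcm5 all YFP- arrays are higher, and neither was called. The loaders Cdc6, at 4.65 and 5.21 against 4.52, 5.05 and 5.33, and Cdt1, at 6.43 and 6.56 against 6.15, 7.62 and 6.90, overlap between the groups as well.

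The only gene called higher in UTR was Gins2, a subunit of the GINS complex that activates the helicase. It read 7.23 and 7.14 in UTR against 5.77, 6.63 and 6.48 in YFP-, and it was higher in UTR by 0.89 ± 0.26 (1.85-fold, limma adjusted p = 0.0432). Gins3, of the same complex, read 5.25 and 5.41 against 6.24, 6.09 and 5.78, and it was called lower, with a difference of -0.71 ± 0.21 (limma adjusted p = 0.0431). The 2 subunits were thus called in opposite directions in the same pair of groups. Cdc45, the third part of the active helicase, read 5.58 and 5.57 against 6.02, 6.19 and 5.81 and was not called.

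Among the polymerases, Pola2, the B subunit of polymerase alpha, had the largest difference of all 45 members. It read 6.39 and 5.62 in UTR against 8.46, 7.42 and 7.66 in YFP-, and it fell by 1.84 ± 0.34 (limma adjusted p = 0.00492). Its catalytic partner Pola1 read 6.61 and 6.70 against 6.75, 6.84 and 7.14, a difference of -0.26 ± 0.15 that was not called. Prim2, the large primase subunit, read 6.34 and 5.83 against 7.34, 7.05 and 6.95 and was lower by -1.03 ± 0.20 (limma adjusted p = 0.00602). The small subunit Prim1 had a difference of 0.05 ± 0.43. Pole2, a subunit of the leading strand polymerase epsilon, read 5.36 and 4.92 against 5.84, 5.93 and 6.88, and its difference was -1.07 ± 0.28 (limma adjusted p = 0.0257). In each of these enzymes a non-catalytic subunit was called and the catalytic Pola1, Prim1 and Pole were not. The differences between subunits were not themselves tested.

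Rpa1, the large subunit of the single strand binding protein, read 7.14 and 7.09 in UTR against 8.16, 8.37 and 8.04 in YFP-. It fell by 1.07 ± 0.16 (limma adjusted p = 0.00209), and the arrays of each group lay close together. Pcna, the sliding clamp, read 10.79 and 10.67 against 11.20, 11.87 and 11.62, a difference of -0.83 ± 0.21 (limma adjusted p = 0.0213). Rfc2, of the clamp loader, was called lower as well, at -0.55 ± 0.16 (limma adjusted p = 0.0440). Rrm1, the large subunit of ribonucleotide reductase, read 7.20 and 7.21 against 8.65, 8.71 and 7.78 and was lower by -1.17 ± 0.31 (limma adjusted p = 0.0292). Its partner Rrm2 read 6.05 and 5.83 against 5.94, 7.80 and 6.11, where YFP- replicate 2 alone stands high, and it was not called. Tyms, thymidylate synthase, read 7.53 and 7.19 against 7.83, 7.78 and 7.69, and was not called although every YFP- array was higher. None of the regulators Ccne1 (5.52 and 5.62 against 5.88, 6.26 and 5.41), Ccne2 and E2f1 and none of the chromatin factors Uhrf1, Chaf1a and Chaf1b was called. Uhrf1 read 6.16 and 6.14 against 6.57, 6.98 and 5.91, so that the groups overlap. Fen1, the flap endonuclease of the lagging strand, was the only member with a group mean under the 25th percentile of all features (4.39), at 4.16 in UTR, and its level there may be background.

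**Figure D2:**
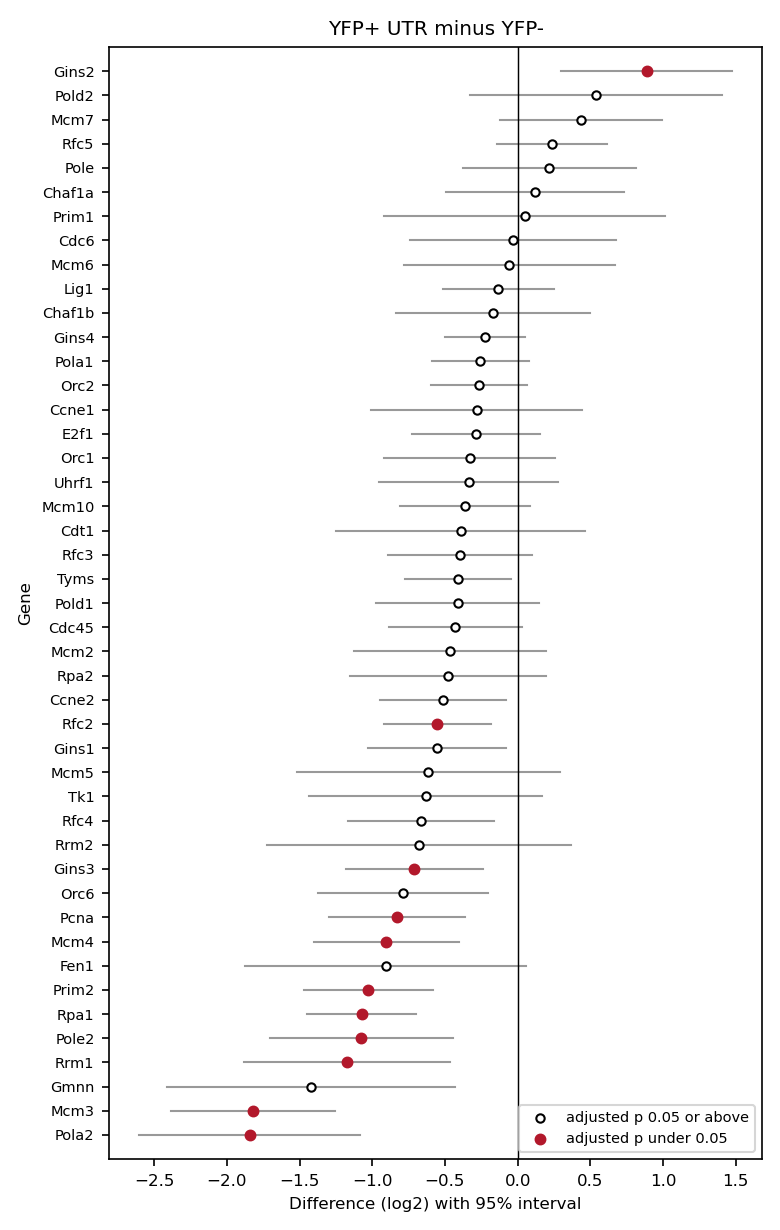
Difference between YFP+ UTR and YFP- for each of the 45 genes (log2, with its 95% interval from limma), sorted by size. Gins2 at 0.89 is the only gene called higher, and Pola2 at -1.84 and Mcm3 at -1.82 are the largest of the 10 called lower.

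YFP- replicate 2, the array with the high lymphocyte markers, was also the highest of its group in 26 of the 45 members, against 33.0% of all genes. The part of those cells in the difference was not tested, but values without that array are at hand. For UTR against YFP-, the median difference of -0.41 became -0.29 without YFP- replicate 2, with 36 of 45 members negative. For the mean of the 3 YFP+ groups against YFP-, 12 members were called lower and 1 higher (against 14.3% and 16.3% of all genes). In 7 members every YFP+ array lay below every YFP- array (15.6%), near the 11.7% of all genes, and in 1 above (2.22%, against 13.9%). There the median difference of -0.35 became -0.12 without YFP- replicate 2. The higher one was again Gins2, at 1.18 ± 0.19 (limma adjusted p = 0.00161), and Gmnn was now called lower, at -1.44 (limma adjusted p = 0.00896). All YFP- arrays are from untreated mice, so in that comparison label and diet are mixed. In the untreated comparison the calls rest on 2 UTR arrays: Mcm3 and Rpa1 alone kept their call in all 12 alternatives, and without UTR replicate 2 or without UTR replicate 1 the called members numbered 2 and 4.

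Further genes of these pathways were counted in the same way, beside 8.46% of all genes called lower and 10.4% called higher. Of 34 measured further replication genes, 7 were called lower (20.6%) and 1 higher (2.94%), with a median of -0.42. Dbf4, the activating subunit of the Cdc7 kinase that fires origins, read 5.38 and 4.92 in UTR against 7.77, 8.82 and 7.22 in YFP-, and it fell by 2.78 ± 0.38 (limma adjusted p = 0.00106). Dck, deoxycytidine kinase, fell by 2.81 ± 0.35 (limma adjusted p = 0.000711), and Pold3, a subunit of polymerase delta, was higher in UTR by 0.81 ± 0.19 (limma adjusted p = 0.0184). Of 27 further G1 to S regulators, 4 were called higher (14.8%) and 3 lower (11.1%), near the shares of all genes. Among the higher were Ccnd1, at 1.43 ± 0.25, and Cdk6, at 0.94 ± 0.16 (limma adjusted p = 0.00376 and 0.00394). Among the lower was the Cdk inhibitor Cdkn1a, at -1.10 ± 0.23 (limma adjusted p = 0.00983). Of 15 mitosis genes, 8 were called lower (53.3%) and 0 higher, among them the mitotic kinase Cdk1, at -2.54 ± 0.43, and the topoisomerase Top2a, at -2.44 ± 0.60 (limma adjusted p = 0.00333 and 0.0208).

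Under DDC, Uhrf1 was the only replication gene that was called, and it rose. Uhrf1 reads hemimethylated DNA behind the replication fork and brings the maintenance methyltransferase there. It read 6.16 and 6.14 in UTR and 7.42, 7.51 and 7.49 in DDC, tight groups with a wide gap between them. The difference of 1.32 ± 0.15 (SE, n = 2 against 3, 95% interval from 0.97 to 1.67) was 2.50-fold, with a limma adjusted p of 0.0308 in a fit of the 8 YFP+ arrays. Across all genes 0.0949% were called higher in this comparison and 0.0647% lower, and of the members 1 was called higher and 0 lower. The call was lost each time 1 of the 5 UTR and DDC arrays was left out, with limma adjusted p-values from 0.0577 to 0.202 and differences from 1.30 to 1.35. It was also lost with all 11 arrays in the fit (limma adjusted p = 0.445).

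The other 44 members did not pass, and 39 of them had a positive difference, so that 40 of 45 were positive, against 52.8% of all genes. The median over all 45 was 0.29, against 0.01 over all genes. In 16 members every DDC array lay above both UTR arrays (35.6%, against 12.7% of all genes), and in 2 below (4.44%, against 11.8%). With an unadjusted p under 0.05 there were 10 higher and 2 lower, against 4.74% and 5.69% of all genes. The members share the cells and the arrays, so these counts describe the list and are no test of it. The DDC arrays were unequal: replicate 1 was the lowest of its group in 32 of 45 (36.5% of all genes) and replicate 2 the highest in 30 (33.7%). Without DDC replicate 1 the median was 0.45 and 42 of 45 were positive, and without DDC replicate 2 it was 0.19 and 37 were positive.

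**Figure D3:**
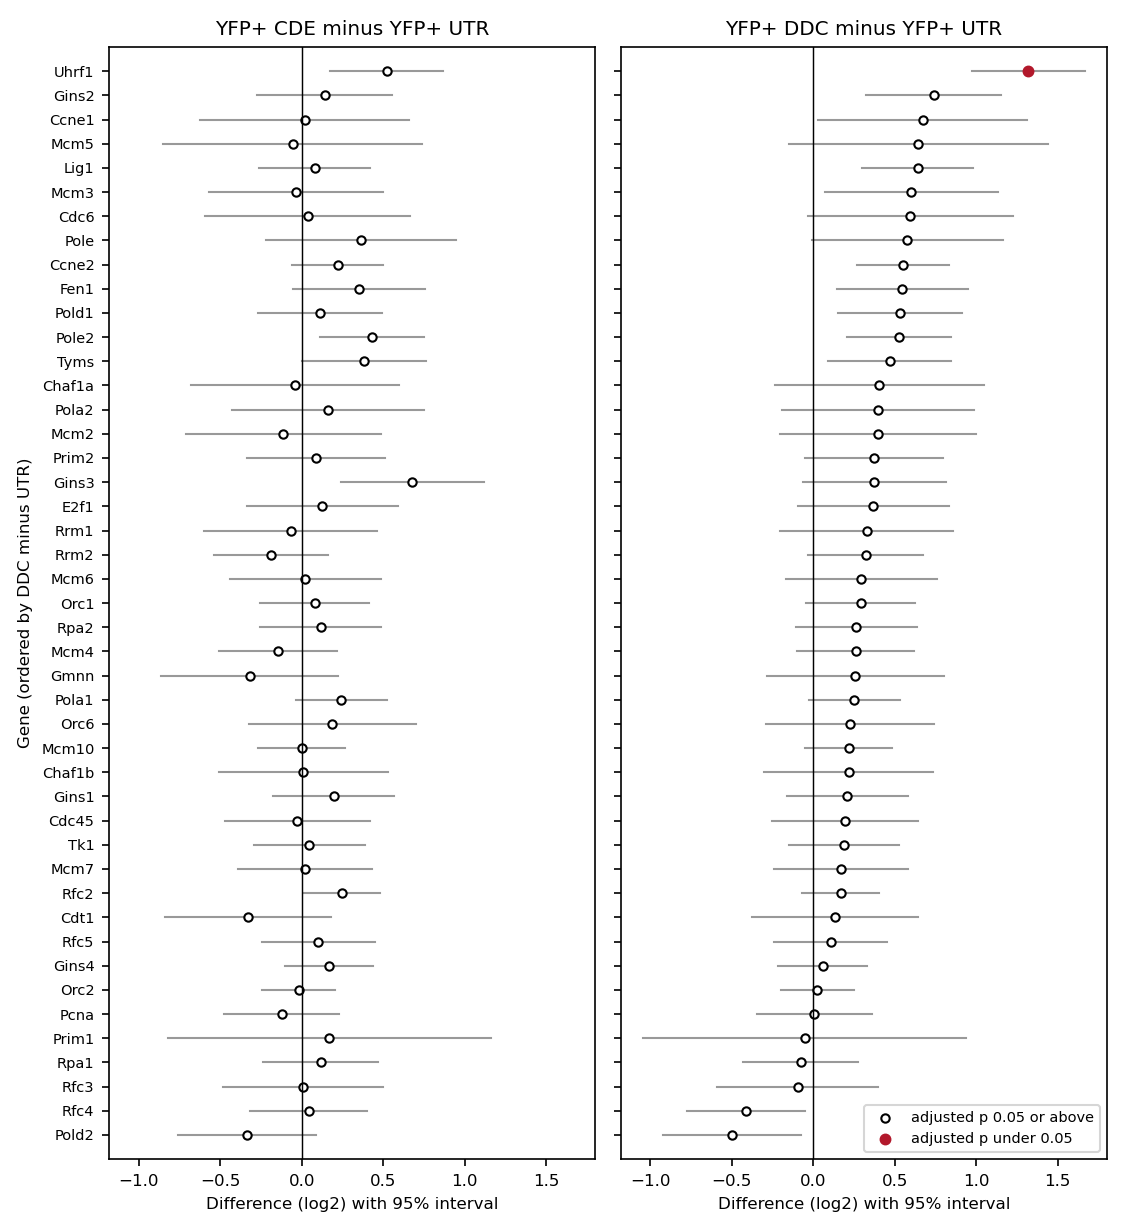
Differences from YFP+ UTR in CDE (left) and DDC (right) for each of the 45 genes (log2, with 95% intervals from limma), in the order of the DDC values. Uhrf1 in DDC, at 1.32, is the only one called in either panel, and 40 of 45 DDC values are above 0, against 31 of 45 for CDE.

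By role, all 12 licensing factors had a positive difference under DDC, with a median of 0.28, and none was called. Mcm3 read 6.11 and 6.18 in UTR and 6.73, 6.91 and 6.62 in DDC, without overlap, a difference of 0.60 ± 0.23 (limma adjusted p = 0.422). Mcm5 read 5.95 and 5.82 against 5.75, 6.66 and 7.18, where DDC replicate 1 is the lowest of the 5 arrays, a difference of 0.65 ± 0.35 (limma adjusted p = 0.571). Mcm2 read 6.60 and 6.13 against 6.26, 7.07 and 6.96, and the loader Cdc6 read 4.65 and 5.21 against 5.17, 5.79 and 5.63. Both pairs of groups overlap. Cdt1, the other loader, read 6.43 and 6.56 against 6.52, 6.89 and 6.48, and Gmnn 6.37 and 6.27 against 6.21, 6.65 and 6.87.

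All 6 factors of origin firing were positive as well, with a median of 0.21. Gins2 read 7.23 and 7.14 in UTR and 7.61, 8.21 and 7.95 in DDC. No arrays overlap, and the difference of 0.74 ± 0.18 was 1.67-fold but was not called (limma adjusted p = 0.190). Gins2 was therefore the member higher in YFP+ than in YFP- and had the largest difference under DDC after Uhrf1. Cdc45 read 5.58 and 5.57 against 5.46, 6.19 and 5.65, with DDC replicate 2 the highest of the 5.

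The clamp and its loader had the lowest median of the 8 roles, 0.01, and 3 of 5 positive. Pcna, often used as a marker of dividing cells, read 10.79 and 10.67 in UTR and 10.47, 10.96 and 10.78 in DDC. Its difference was 0.01 ± 0.15, with an interval from -0.35 to 0.36. Rfc4, of the loader, read 5.93 and 5.91 in UTR against 5.44, 5.70 and 5.38 in DDC, with every DDC array lower, a difference of -0.41 ± 0.16 that was not called (limma adjusted p = 0.417).

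Of the 8 polymerase and primase subunits 6 were positive, with a median of 0.39. Pole, the catalytic subunit of polymerase epsilon, read 5.53 and 5.14 against 5.82, 6.23 and 5.68, and Pold1, that of polymerase delta, 6.49 and 6.90 against 6.97, 7.31 and 7.39. Neither overlaps between the groups, and neither was called (limma adjusted p = 0.487 and 0.309). Pold2, the partner of Pold1, went the other way, at 9.02 and 8.54 against 8.05, 8.40 and 8.40, a difference of -0.50 ± 0.18 (limma adjusted p = 0.396). Pola1 read 6.61 and 6.70 against 6.75, 7.08 and 6.90, just above UTR on every array.

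Lig1, which seals the fragments of the lagging strand, read 7.57 and 7.35 in UTR and 7.83, 8.23 and 8.25 in DDC. Its groups do not overlap, and the difference of 0.64 ± 0.15 was not called (limma adjusted p = 0.169). Fen1 read 4.06 and 4.25 in UTR against 4.68, 4.55 and 4.88, and since its UTR level may be background, its difference of 0.55 ± 0.18 may understate the change. Tyms, which makes thymidylate, read 7.53 and 7.19 against 7.54, 7.95 and 7.99, where DDC replicate 1 stands level with the higher UTR array. Rrm2, the small subunit of ribonucleotide reductase, read 6.05 and 5.83 against 6.26, 6.29 and 6.23, tight in DDC and above both UTR arrays, at 0.32 ± 0.15 (limma adjusted p = 0.523).

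The cyclins E, which drive entry into S phase with Cdk2, were both higher on every DDC array. Ccne1 read 5.52 and 5.62 in UTR and 5.93, 6.49 and 6.31 in DDC, a difference of 0.67 ± 0.28 (limma adjusted p = 0.458). Ccne2 read 6.19 and 5.90 against 6.66, 6.52 and 6.61, a difference of 0.55 ± 0.12 with the lowest adjusted p after Uhrf1 (limma adjusted p = 0.156). Neither was called.

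**Figure D4:**
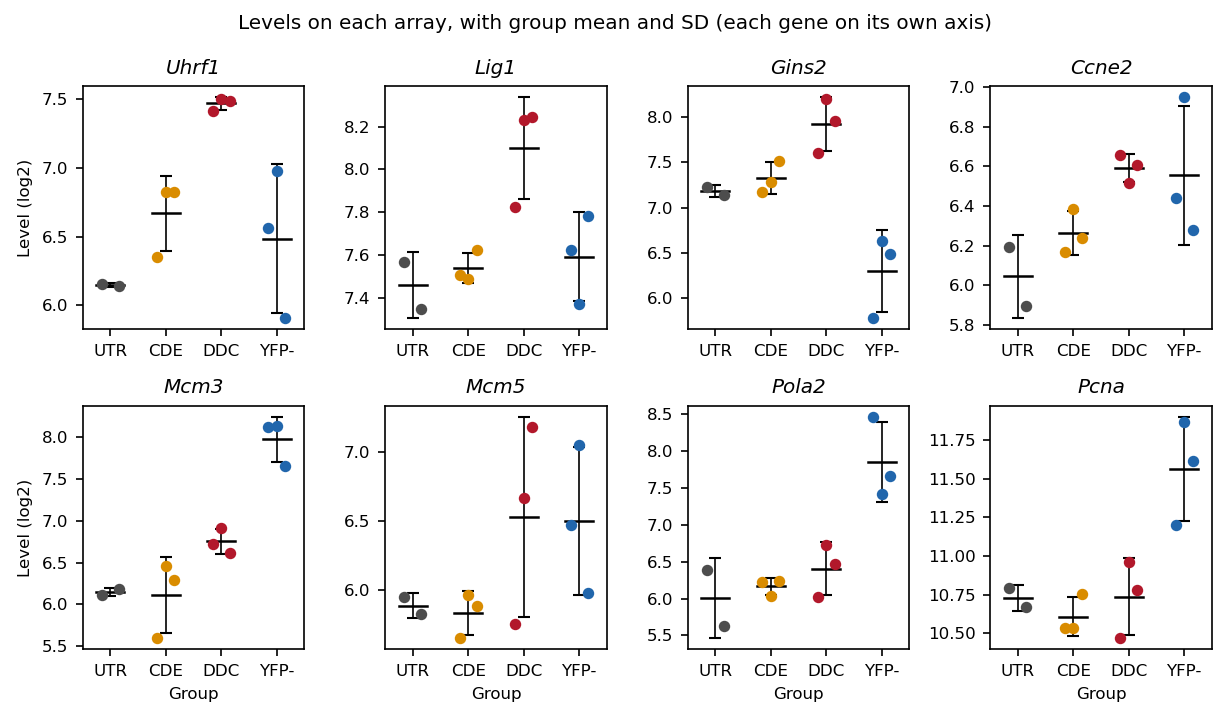
Levels of chosen replication genes on each array (log2), by group, with points for arrays and the mean and SD for each group; every gene has its own axis. Uhrf1 sits at 7.42 to 7.51 in DDC, above 6.14 and 6.16 in UTR and 6.36 to 6.83 in CDE.

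Under CDE no member was called by limma, and no gene at all (0.00% of 23185). With an unadjusted p under 0.05 there were 5 members higher and 0 lower, against 3.58% and 2.86% of all genes. The median over members was 0.08, and 31 of 45 were positive, against 51.0% of all genes. It was 0.14 without CDE replicate 1 (36 positive), 0.039 without CDE replicate 3 (27 positive) and 0.032 without UTR replicate 2 (24 positive). CDE and DDC were each set against the same 2 UTR arrays, so the 2 lists of differences are not independent. The largest difference was that of Gins3, at 5.25 and 5.41 in UTR and 5.62, 6.14 and 6.25 in CDE, 0.68 ± 0.19 (limma adjusted p = 0.660). Uhrf1 read 6.36, 6.83 and 6.83, above both UTR arrays, a difference of 0.52 ± 0.15 (limma adjusted p = 0.660). Pole2 read 5.36 and 4.92 against 5.60, 5.62 and 5.50, a difference of 0.43 ± 0.14 (limma adjusted p = 0.687). Cdt1 and Gmnn lay lower on every CDE array than on UTR, at 5.72, 6.38 and 6.40 and at 5.60, 6.13 and 6.26, with differences of -0.33 ± 0.22 and -0.32 ± 0.24. Mcm2 read 5.99, 6.38 and 6.39 in CDE, Mcm5 5.65, 5.96 and 5.88, Cdc6 4.92, 5.38 and 4.61, and Cdc45 5.59, 5.45 and 5.62. Pcna read 10.53, 10.54 and 10.75, Rrm2 5.45, 5.90 and 5.90, and Ccne1 5.00, 5.93 and 5.84. All of these groups overlap with UTR. Pola1, at 6.99, 6.89 and 6.81, and Tyms, at 7.67, 7.71 and 7.84, lay above both UTR arrays, with differences of 0.24 ± 0.12 and 0.38 ± 0.16 that were not called. Pole read 5.37, 6.14 and 5.57 and Fen1 4.21, 4.55 and 4.77, against UTR levels of Fen1 of 4.06 and 4.25 that may be background. In 7 members all CDE arrays lay above UTR and in 2 below, against 11.5% and 10.5% of all genes. CDE replicate 1 was the lowest of its group in 28 of 45, against 30.8% of all genes.

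The diets themselves were compared as DDC minus CDE, in the fit of the 8 YFP+ arrays. The UTR arrays thus entered the estimate of spread but not the difference. Uhrf1 was higher in DDC than in CDE by 0.80 ± 0.13 (n = 3 against 3, 95% interval from 0.49 to 1.11, limma adjusted p = 0.0396), and it was the only member called, against 0.418% of all genes called higher and 0.742% lower. This call too was lost in each of the 6 fits that left out a CDE or DDC array, with limma adjusted p-values from 0.0673 to 0.110 and differences from 0.64 to 0.88. It was also lost with the DDC and CDE groups fitted alone. Over all members the median was 0.21 and 37 of 45 were positive, against 53.0% of all genes. The median was 0.11 without DDC replicate 2 (34 positive) and 0.14 without CDE replicate 1 (35 positive). In 9 members every DDC array lay above every CDE array and in 1 below, against 9.64% and 10.6% of all genes. DDC had the highest mean of the 3 YFP+ groups in 37 of 45 members, against 39.3% of all genes. In 7 of them, Mcm3, Gins2, Pold1, Lig1, Rrm2, Ccne2 and Uhrf1, every DDC array lay above every UTR and CDE array, as in 4.57% of all genes. Rfc4 was the only member with every DDC array below, with a difference from CDE of -0.45 ± 0.14 (limma adjusted p = 0.178). Lig1 came nearest to a further call, at 0.56 ± 0.13 (limma adjusted p = 0.0992).

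Other lists gave the setting of the DDC values. Of the 34 further replication genes 23 had a positive difference from UTR under DDC (67.6%, against 52.8% of all genes). Their median was 0.14, and 0 were called. The 2 largest were Hells, a chromatin remodeller of DNA methylation, at 0.65 ± 0.43, and Wdhd1, a replisome factor, at 0.63 ± 0.23 (limma adjusted p = 0.649 and 0.385). Of 27 further G1 to S regulators 15 were positive (55.6%, near the share of all genes), with a median of 0.12, and 0 were called. All 15 mitosis genes were positive, with a median of 0.67, and 0 were called. In 12 of them (80.0%) every DDC array lay above both UTR arrays, against 12.7% of all genes. With an unadjusted p under 0.05 there were 13 higher, against 4.74% of all genes. Top2a read 4.74 and 4.50 in UTR against 5.39, 7.03 and 6.76 in DDC, and Cdk1 5.40 and 5.26 against 6.28, 6.99 and 7.72. DDC replicate 1 is the lowest of its group for both, as for most of the 45 genes. The mean of the biliary markers was 10.03, 10.25 and 10.15 in DDC replicates 1 to 3 against 10.02 and 9.69 in UTR, higher on every DDC array. That of the hepatocyte markers was 7.80, 7.64 and 7.76 against 7.53 and 7.72. The endothelial markers stood at 5.17, 5.57 and 5.31 against 5.57 and 6.06. On the markers of other cells, the mean of the lymphocyte markers ran from 4.76 to 5.01 in DDC against 4.82 and 4.91 in UTR. That of the macrophage markers ran from 5.90 to 6.08 against 6.30 and 6.31, lower in DDC. The mean of 6 neutrophil and monocyte markers was 5.64, 5.24 and 4.63 in DDC replicates 1 to 3 against 4.82 and 4.94 in UTR. The leukocyte marker Ptprc read 5.32, 5.34 and 4.51 in DDC and 4.71 and 5.15 in UTR. The mean of 4 erythroid precursor markers was 5.50, 5.35 and 5.49 in DDC against 5.30 and 5.33 in UTR, higher on every DDC array. In both groups, 2 of these markers had a mean under the 25th percentile of all features. The mean of 6 stellate cell and fibroblast markers ran from 5.01 to 5.17 in DDC against 5.23 and 5.21, lower in DDC. The part of such cells in the DDC values was not tested.

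**Figure D5:**
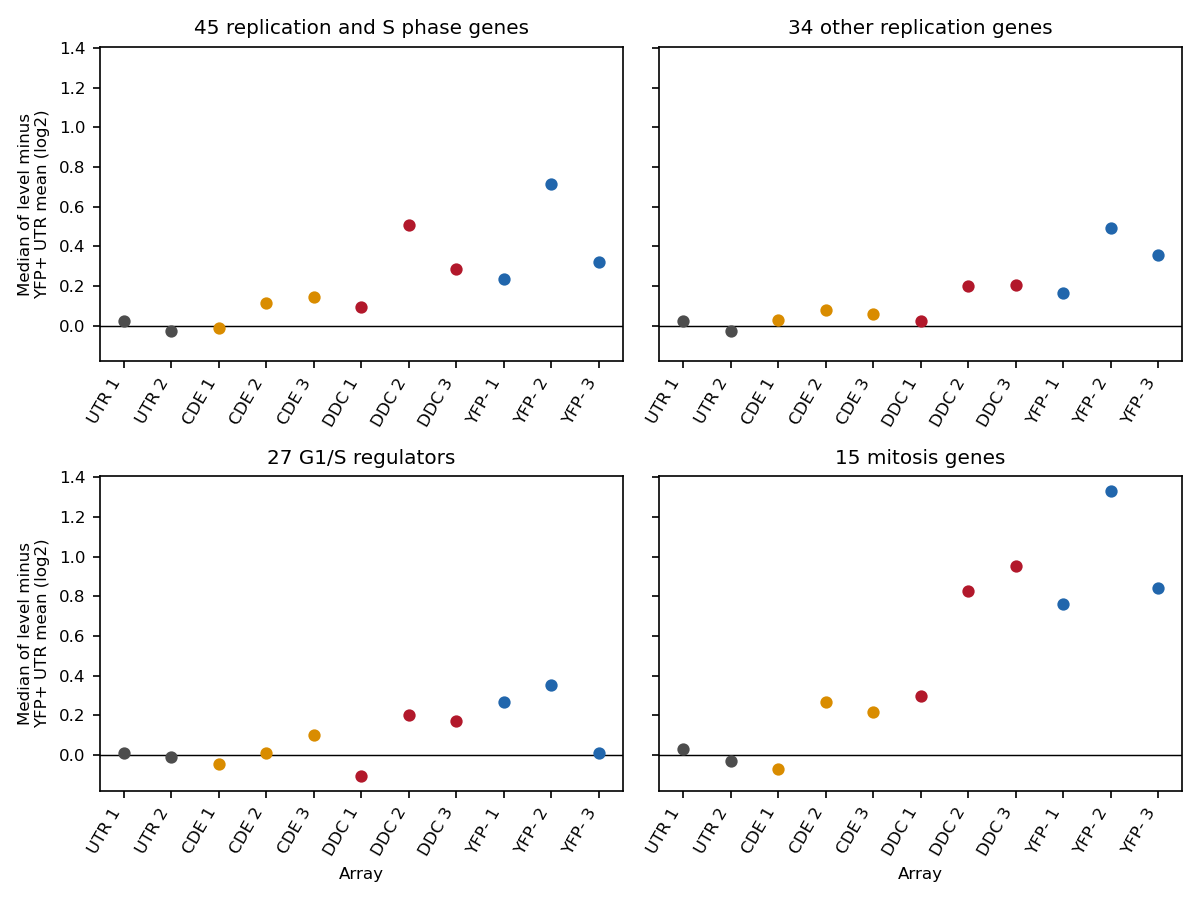
Median over each gene list of the level minus the YFP+ UTR mean (log2), for each of the 11 arrays. On DDC replicates 1, 2 and 3 the 45 replication genes stand at 0.09, 0.51 and 0.29 and the mitosis genes at 0.30, 0.83 and 0.95.

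Promoters were searched for the letters that E2F factors bind. RefSeq windows of 300 bases, 250 before the start and 50 after it in build GRCm38.p6, were at hand for 36 of the 45 members. The motifs TTTCGCGC, TTTGGCGC, TTTCCCGC and TTTGCCGC, which can overlap each other, were searched on both strands. At least 1 was found in 14 of the 36 members (38.9%), against 578 of 17708 measured genes with a window (3.26%). In 5 members there were 2 or more (13.9%), against 27 of those 17708 genes (0.152%). The motif CCAAT, on either strand, was in 22 of 36 (61.1%), against 42.0% of measured genes. The lines below each show 1 match, in capitals, from members whose values are given above, read 5′ to 3′ on the strand of the gene. Mcm3 holds a further match 38 bases after the start that is not shown. They are shown because Uhrf1 is the member called under DDC, Mcm3, Lig1 and Pold1 are among those with every DDC array highest, Mcm5 has a pair of overlapping matches, each given a line, and Gins3 and Pole2 were, with Uhrf1, the members with the largest differences under CDE.
Uhrf1, chr17:56304118-56304145, plus strand, match 185 bases before the start: ccgagtcgggTTTCGCGCgcccaggcgt
Lig1, chr7:13278842-13278869, plus strand, match 26 bases after the start: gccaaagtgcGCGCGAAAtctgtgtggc
Mcm3, chr1:20820276-20820303, minus strand, match 19 bases after the start: aacttccgtgGCGGGAAAacttgggaag
Pold1, chr7:44548766-44548786, minus strand, match 39 bases after the start: gtatcttgtgGCGGGAAAagc
Mcm5, chr8:75109346-75109373, plus strand, match 153 bases before the start: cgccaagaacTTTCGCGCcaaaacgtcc
Mcm5, chr8:75109350-75109377, plus strand, match 149 bases before the start: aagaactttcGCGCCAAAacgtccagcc
Gins3, chr8:95633508-95633535, plus strand, match 41 bases before the start: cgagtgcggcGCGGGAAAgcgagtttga
Pole2, chr12:69228163-69228190, minus strand, match 10 bases after the start: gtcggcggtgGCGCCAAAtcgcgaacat

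The match in Uhrf1 lies far upstream of the start, in 1 of the 2 windows that the table holds for that gene, and those of Lig1, Mcm3, Pold1 and Pole2 lie just after the start. The other members with a match were Orc1, Cdc6, Cdt1, Mcm6, Mcm7, Pola1 and Rfc3. Of the members with every DDC array highest, Rrm2 had a window without a match, and Gins2 and Ccne2 had no window. Under DDC the 14 members with a match had a median difference from UTR of 0.45, with 13 positive, and the 22 without had 0.22, with 18 positive. Other measured genes with a match (555) had a median of 0.01, as had those without (16861), with 50.8% and 52% positive. Under CDE the medians of members with and without a match were 0.06 and 0.03, with 11 and 13 positive. For UTR against YFP- they were -0.36 and -0.45, with 1 and 4 positive. A match is a run of letters in the window, and no binding was measured.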

How the data were processed

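RNA of sorted liver cells was hybridised to Affymetrix MoGene 2.0 ST arrays. The values are the log2 levels that the authors deposited, 1 per feature and array. For background correction, normalization and probe summary the source texts name no method, and base 2 is an inference from the range of values (2.55 to 13.57). No further normalization was applied, and array medians ran from 5.63 to 5.76. Tests used limma 3.58.1 under R 4.3.3 (lmFit and eBayes on group means, two-sided, Benjamini-Hochberg over 23185 genes). All 11 arrays entered the comparisons with YFP- (7 residual degrees of freedom), and the 8 YFP+ arrays those among diets (5). The fit was tested on simulated data. Members and lists were chosen with earlier results of these data known. Values in every array were given for a set core of 12 members and for those with the largest differences in each comparison. Ccne2, Pold1, Pold2, Prim1, Rfc2, Rfc4 under DDC, Gins3 against YFP-, Ptprc and the members named for an overlap or a motif were chosen after their values were seen. So were Ccnd1, Cdk6 and Cdkn1a. Alternatives are in the closing section. The number of arrays limits the precision. Promoter sequences are from RefSeq (GRCm38.p6).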

Additional observations from a re-analysis of the deposited data

Results flagged for a closer look

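Uhrf1 differed between the diets. Its level was higher in DDC than in CDE by 0.80 ± 0.13 log2 units (SE, n = 3 against 3, limma adjusted p = 0.0396), with all 3 DDC arrays (7.42, 7.51 and 7.49) above all 3 CDE arrays (6.36, 6.83 and 6.83). Both diets were set against the same UTR arrays, so this is the difference of their effects. It was past the threshold in 5 of 14 alternatives, with a difference from 0.64 to 0.88 over all of them.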

How the results depend on the processing

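Every alternative gave Uhrf1 a positive difference under DDC, but its adjusted p was past the threshold in 5 of 13. The count of called members for DDC against UTR was 0 with all 11 arrays in one fit, 0 with the 2 groups alone, 0 with the replicate number as a block and 0 to 0 when 1 array was left out. For DDC against CDE it was 0 under the same 3 settings, 0 to 0 without 1 array, and 2 after quantile normalization, which added Lig1 (0.67, limma adjusted p = 0.0443). For UTR against YFP- it was 2 with the 2 groups alone and 2 to 12 without 1 array. Without 1 array the median over members ran from 0.19 to 0.45 for DDC against UTR and from 0.11 to 0.29 for DDC against CDE. For CDE against UTR it ran from 0.032 to 0.14. For UTR against YFP- it ran from -0.51 to -0.29, and for the mean of the 3 YFP+ groups from -0.37 to -0.12. Lig1 in CDE reversed to -0.029 without UTR replicate 2. Whether the replicate numbers pair the samples is not known from the labels. Same-number deviations from the group means correlated between -0.07 and 0.13, and only 1 of 15 pairs was over 0.1. Deviations within groups of 2 or 3 arrays are tied to each other, so these correlations cannot settle it. With the replicate block, Uhrf1 under DDC had a limma adjusted p of 0.107. With 2 UTR arrays, a missed call says little about the absence of a difference.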
